A study of Salmo salar with 34 samples.

Results

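The probes described here are the 150 array probes that varied most between Atlantic salmon of the same diet and sex in the midgut, among 14841 probes measured. They were chosen from levels on the log2 scale, relative to the 75th percentile of all probes on the same array, so that a level of 0 is a brightness equal to that percentile. A probe had to lie well above the local background on all 34 arrays, which 7597 probes did, and the 150 with the highest mean level were then left out. Also left out were probes whose mean differed by more than 0.5 between high and low mineral levels in inorganic or in organic fish, and probes whose change with the level in organic fish differed by more than 1 between the sexes. Of the 4378 probes that remained, the 150 with the largest standard deviation (SD) within the 8 diet by sex groups became the members. All 150 entered the descriptions below, except that the fit restricted to the second scan day tested 149.

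Each array carried the midgut RNA of 1 Atlantic salmon post-smolt after 12 weeks on a diet with a mineral premix of copper, iron, manganese, selenium and zinc in inorganic or organic form. All fish were kept in sea water under continuous light, and no group went without the premix. All tanks also went through weekly handling stress in the middle of the trial and lowered oxygen saturation in its last weeks. The groups were high inorganic males (n = 2) and females (n = 4), low inorganic males (n = 3) and females (n = 5), high organic males (n = 6) and females (n = 3), and low organic males (n = 5) and females (n = 6). The labels do not tie the names high and low to numbered diets. Tanks were not taken into account, and fish that shared one were counted as separate.

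The midgut takes up nutrients and minerals through absorptive enterocytes, and its wall also holds mucus-secreting goblet cells, muscle, blood vessels and many immune cells. A piece of midgut from 1 fish differs from the next in its mixture of these cells, in recent feeding and in immune activity, and genes that share a cell type or a control tend to move together from fish to fish. In bulk tissue, fewer cells of a type and less RNA per cell cannot be told apart. The files give identifiers for the probes and do not pair them with genes: 0 of the 150 members, and 0 of 14841 probes, matched an entry of the salmon gene table used here. Lists of cell type and pathway markers could therefore not be read, the tissue label could not be set against its markers, and the members are described by identifier.

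The arrays differed in ways that touch the members. They came from 7 slides scanned on 2 days, the 16 males all on the second day, the females 12 on the first day and 6 on the second. The 75th percentile of signal ran between 87.9 and 863 intensity units, 8786 to 13682 probes per array were well above background, and Pearson r between 2 arrays was 0.827 to 0.992. On 4 arrays the spots in the middle were dim. Spots less than 0.5 mm from the centre had a median deviation from their mean over all arrays of -3.32 on the array of low organic male 2, -3.25 on that of low organic male 6, -2.42 on that of low organic male 5 and -1.52 on that of low inorganic male 2, against -0.46 to 0.66 on the other 30 arrays. At 2 to 2.5 mm the same 4 arrays were between -0.05 and 0.04.

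**Figure D1:**
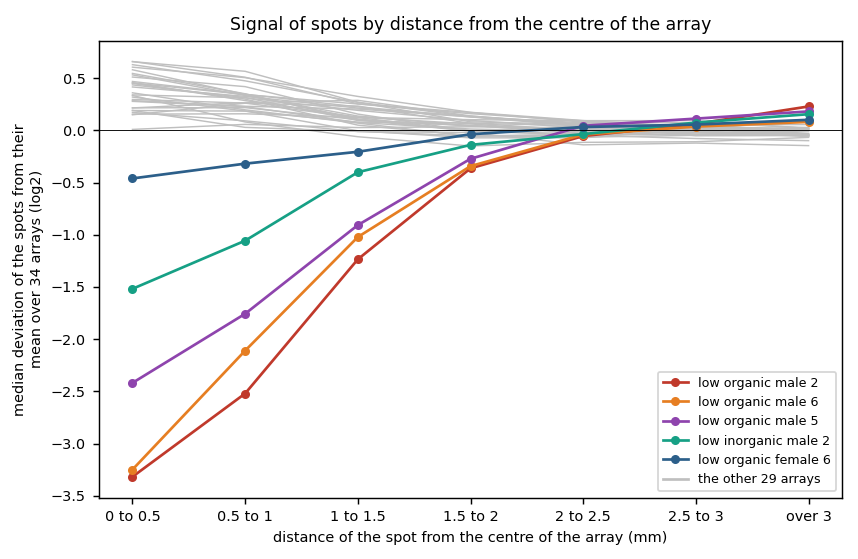
Median deviation of the spots from their own mean over 34 arrays (log2) on the vertical axis, against distance from the centre of the array (mm) in 7 rings. Each line is 1 array and covers all 7597 probes well above background, members or not. The 5 coloured arrays are the lowest near the centre, and 4 of them fall below -1 there. From 2 mm outwards all 34 lie between -0.15 (high organic female 3) and 0.23 (low organic male 2).

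The members were variable but only moderately bright. Their SD within groups ran from 0.718 to 1.98 with a median of 0.803, against 0.149 to 0.715 with a median of 0.353 in the other 4228 probes of the pool. These values chose the members and are given as a description. The difference between the highest and the lowest fish was 2.61 to 7.07 log2 units, with a median of 3.61 in the members and 1.60 in the other probes. The median of the members' mean levels was -0.85, at the 67.6th percentile of all probes, and 52 of 150 lay above 0. When the pool was cut into 3 parts of equal size by mean level, 74 members came from the dimmest part, 37 from the middle and 39 from the brightest, and the median SD of all probes in these parts was 0.431, 0.341 and 0.316. Calling them well expressed therefore holds only in the sense that each was above background on every array. On a member's dimmest array its brightness was 1.24 to 56.4 times the local background, with a median of 2.00 over the members. With normexp background correction the median SD of the members within groups was 0.570. At the threshold, Ssa#DY730388 and Ssa#CK894935 were just inside with SD of 0.7184 and 0.7180, and Ssa#CA056409 and Omy#TC171485 were just outside with 0.7146 and 0.7143.

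The most variable member, Ssa#KSS2742, had an SD of 1.98 within groups and levels between -1.87 and 5.21, with a median of 3.06. Its lowest fish were high inorganic female 3 at -1.87, high organic male 2 at -1.79 and low inorganic male 2 at -0.52, and its highest was high inorganic female 1 at 5.21. High and low fish stood side by side in most groups: the 4 high inorganic females were at 5.21, -1.87, 2.44 and 4.52. It belonged to no module of co-varying members.

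Ssa#EG647788, the second most variable (SD 1.57), ran between -4.87 in low organic male 3 and 1.90 in low organic female 6. The 5 low organic males alone covered most of that range, at -2.97, -4.87, 1.01, 1.38 and 0.07. The spot of high inorganic female 4 was marked as an outlier and left out for this member. Omy#S50901702 (SD 1.33) ran between -2.36 in high organic female 4 and 3.73 in low organic male 2, and its low values were all in females scanned on the first day. Ssa#GRASP209155421 (SD 1.32) was at -1.26 in low organic female 3 and at 4.03 in high organic male 7, with 5 fish at 3.46 or more and the other 29 at 2.34 or less. Ssa#S35555077 (SD 1.29) ran between -2.90 in low organic male 2 and 2.27 in low inorganic male 1. Its spot lay 1.01 mm from the centre of the array, inside the dim area of 4 arrays, and low organic male 2 alone gave 17.2% of its squared deviations.

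**Figure D2:**
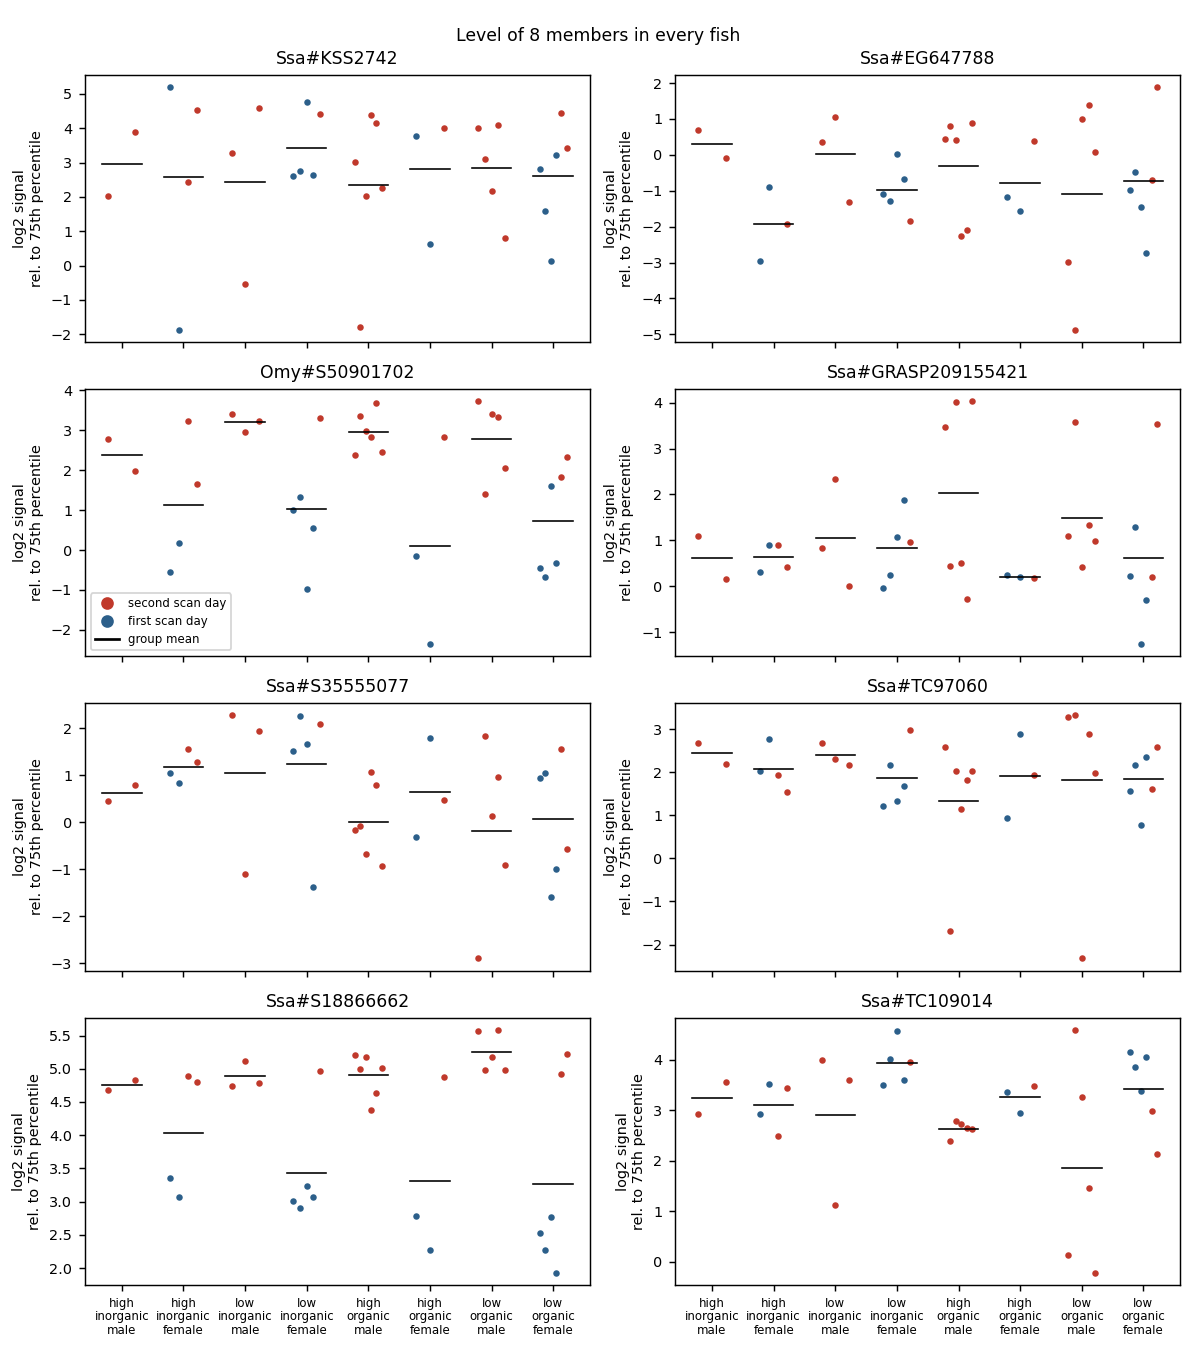
Level of 8 members in every fish (log2 signal relative to the 75th percentile of the array) by diet and sex group; points are fish, red for the second scan day and blue for the first, and bars are group means. The first 5 panels are the most variable members, with fish of a single group up to 7.07 log2 units apart in Ssa#KSS2742, and the last 3 are a member with 2 very low fish, a member split by scan day and a member with a spot at the centre of the array.

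In some members a few fish stood apart from the rest. Over all members the spread was hardly more concentrated in 1 fish than in other probes. The array with the largest deviation gave a median of 18.5% of a member's squared deviations within groups, against 17.4% in the other probes of the pool. In 40 of 150 members the sorted levels had an empty stretch of at least 1 log2 unit, against 1.99% of the other probes of the pool; the choice by SD favours such probes, so the count is a description. In 10 of them at least 2 fish lay on the smaller side. Ssa#TC97060 was at -2.32 in low organic male 4 and -1.68 in high organic male 2, while the other 32 fish were between 0.77 and 3.32. Ssa#GRASP209736257 was at -3.25 in high inorganic female 1 and at 0.37 or more in the other 33 fish. These 2 members, and all others named outside the rule for naming, were picked after their values were seen.

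Few fish led the deviations. The choice by SD within groups favours probes in which a fish lies far from its group, so the shares below are a description. The fish farthest from its group mean was low organic male 3 in 37 of the members (24.7%, against 8.37% of the other probes of the pool), low organic female 6 in 22 (14.7% against 6.79%), and low organic female 4 in 15, where it led 3.67% of the other probes. The root mean square deviation over the members was 1.34 in low organic male 3, the highest of the 34 fish, and 0.433 in low inorganic female 2, the lowest. The group of low organic male 3 also held low organic males 2, 5 and 6, whose arrays had a dim centre. For spots near the centre these arrays lower the group mean, and in the mean of module D, described below, low organic male 3 lay 2.01 above its group. Modules B, C and F had 0 spots within 1.5 mm of the centre. In their means low organic male 3 was the lowest fish relative to its group, at -1.47, -2.18 and -1.78. What the dim centres contributed to the count of 37 was not tested. By group, the root mean square SD of the members ran between 0.628 in high inorganic males and 1.09 in low organic males. It was 1.97 to 2.57 times that of the other probes in the same group. The choice by SD within these groups makes it larger than in the other probes, so these values are a description.

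After the means of the 8 groups were removed, 1565 of 11175 member pairs (14%) had a Pearson r of at least 0.5 or at most -0.5 across the 34 fish, against 8.31% of all pairs in the pool, members included. The choice by SD can favour such pairs, and the shares are a description. Of these pairs 1287 were positive and 278 negative, and the median r over all member pairs was 0.04. The points share arrays, slides and scan days, and no p is given. The closest pair was Ssa#KSS2290 and Ssa#S31979331, with r = 0.97. The most opposed pair was that of Ssa#STIR33782 and Ssa#S35472445, with r = -0.75. Average linkage at a mean r of 0.5 gave 7 modules of at least 8 members, named A to G by size, which held 95 members. The other 55 fell into 12 clusters of 2 to 7 or stood alone (21).

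**Figure D3:**
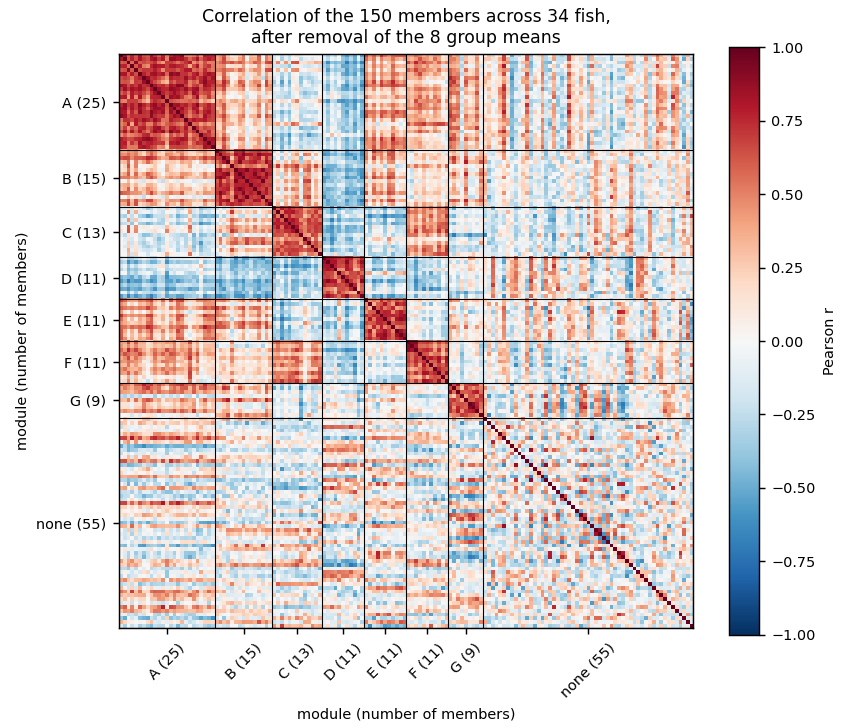
Pearson r between all pairs of the 150 members across 34 fish after removal of the group means, with members ordered by module and, in each, by SD. The 7 squares on the diagonal are modules A (25 members) to G (9), with median r of 0.63 to 0.73 inside them, and the last block is the 55 members in no module, where r is mostly near 0.

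Module A, the largest with 25 members (median r = 0.71), followed the scan day. Its leading members were Omy#S15340907, Omy#S34311105 and Ssa#S48437928, those with the highest mean r to the rest. The mean level of the module was 0.02 to 1.41 in the 6 females scanned on the second day and -1.87 to -0.23 in the 12 scanned on the first, without overlap. Males, all scanned on the second day, were at 0.16 to 1.42. Between the scan days lay 61.4% of the module's squared deviations within groups. Taking the scan day out as a term left a median r of 0.49 inside the module. The 6 females of the second day came from all 4 diets, so in females the scan day could be set apart from the diet. It could not be told apart from the set of slides. The first-day arrays came from 2 slides that held no second-day array, and slides held 64.0% of the module's squared deviations. What else differed between the 2 sets of fish was not tested.

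The leading members of module A show the same fish at the ends. Omy#S15340907 had levels between -1.51 and 2.85 with a median of 1.32, lowest in low organic female 4 and highest in low organic male 5. Omy#S34311105 ran between -1.97 and 2.14, and Ssa#S48437928 between -4.38 and 0.35. Low organic female 4 was the lowest fish in all 3 of these members, and the highest was a low organic male each time. In the module's mean, low organic female 4 was 1.51 below its group and low organic female 6 was 1.76 above it, the farthest fish on either side. These fish were scanned on different days: low organic female 4 on the first, low organic female 6 and the males on the second.

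Of all 150 members, 9 (6.00%) were higher in every second-day female than in any first-day female, and 0 were lower in all of them. In the other probes of the pool these shares were 1.32% and 0.828%. Each female group mixed both scan days, so a split by day raises the SD that chose the members, and the count is a description. The 9 were 8 members of module A and Omy#S50901702 of module G. The widest split was in Ssa#S18866662, at 4.80 to 5.22 in females of the second day and 1.93 to 3.35 in those of the first, with males at 4.38 to 5.59. Omy#S50901702 was at 1.65 to 3.32 in second-day females and -2.36 to 1.60 in first-day females.

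Module G, with 9 members (median r = 0.63), had a milder form of the same split, with 38.3% of its squared deviations between scan days. Its mean was -0.68 to 0.14 in second-day females and -3.04 to -0.14 in first-day females, and the sets overlapped. High organic female 4 was the lowest fish, 1.65 below its group mean, and high organic female 5 the highest, 1.53 above it.

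Module D (11 members, median r = 0.67) held spots from the middle of the array. All 11 lay 0.48 to 1.30 mm from the centre of the array, and the spots of the other 6 modules lay at least 1.61 mm away. Within 1.5 mm were 21 of 150 members (14%) against 3.45% of the other probes of the pool. The lowest fish were those with the dim centres. The mean of the module was -1.44 in low organic male 2, -0.84 in low organic male 6, -0.30 in low inorganic male 2 and -0.24 in low organic male 5, then 0.02 in low organic female 6 and 0.34 to 2.17 in the other 29 fish. Without these 5 arrays the median r inside the module was 0.23.

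The leading members of module D repeat the pattern. Ssa#TC109014, 0.48 mm from the centre, was at -0.22 in low organic male 6, 0.14 in low organic male 2, 1.13 in low inorganic male 2 and 1.47 in low organic male 5, with a highest level of 4.59 in low organic male 3. Ssa#GRASP223648651 was lowest in the same 4 fish, between -5.08 and -3.10, and Ssa#S47728163 likewise, between -1.06 and 0.42. Probes that are no members moved with them where they were spotted nearby. Of 256 non-member probes within 1 mm of the centre, 78.1% had an r of at least 0.5 with the mean of module D, against 0.530% of 6226 probes beyond 2 mm. Over all probes well above background the median SD within groups was 0.993 within 0.5 mm of the centre and 0.412 beyond 2 mm. Of the 10 members within 1.5 mm that were outside module D, 2 had their farthest fish in low organic male 4, Omy#S34314498 and Ssa#CK891747. The others had a different fish each. It was an array with a dim centre in Ssa#S35555077 (low organic male 2) and Ssa#GRASP223649311 (low organic male 5). In Ssa#S18875770 it was low organic male 3, of the same group. In Ssa#S30270153, Omy#S18163111 and Ssa#GRASP209156105 it was a female. What the dim centres contributed to these members was not tested.

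Modules C and F had their lowest level in low organic male 3. In module C (13 members, median r = 0.64) the mean level was -4.72 in that fish and -3.13 to -1.11 in the other 33. Module C was dim, with mean levels of -3.21 to -1.03 in its members, so its lowest values lie close to background. On its dimmest array Ssa#GRASP209154617, the most variable member of module C, was at 1.625 times the local background. The SD of this member was 1.16, and 0.517 with normexp. What background contributed to the fall in low organic male 3 was not tested. The leading members of module C were Ssa#S30290395, Ssa#S31992285 and Ssa#DW573165, at -3.67, -5.11 and -4.52 in low organic male 3, where each had its lowest level. For Ssa#DW573165 the next fish was at -2.28. Without that fish the median r inside module C was 0.42. Relative to its group mean the farthest fish on the high side was low organic male 6, 1.27 above it, and in level the highest was low inorganic female 3 at -1.11.

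In module F (11 members, median r = 0.64) low organic male 3 was again lowest, at -2.43, followed by low organic female 4 at -1.93. The highest were low inorganic female 3 at 0.58 and low organic female 6 at 0.52. The leading members Ssa#GRASP209733483, Ssa#CA040440 and Ssa#DY730388 ran between -2.72 and 1.53, -4.21 and -1.10, and -2.75 and 1.09. Without low organic male 3 the median r was 0.56. The means of modules C and F correlated with r = 0.65, the highest of the 21 pairs of modules. When the members were clustered in organic fish alone, a set of 26 that held all 11 of module F had a median r of 0.22 in inorganic fish and 0.62 in organic fish. The 11 members of module F alone had 0.42 and 0.75. A set with 21 of module A had 0.73 in inorganic fish and 0.74 in organic fish. The organic fish formed these clusters. A set of 8 formed in inorganic fish, 6 of them from module F, had 0.65 in inorganic fish and 0.67 in organic fish, and none of the differences were tested.

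Module B had 15 members and the highest median r, 0.73. It held all but 1 of the 8 closest pairs, among them Ssa#KSS2290 with Ssa#S31979331. Its spread was not tied to a single fish or day. Scan days held 6.20% of its squared deviations, and the median r was 0.79 with the scan day as a term and 0.70 without low organic male 3. Slides held 37.4%, against medians of 26.2% over single members and 25.1% over single other probes of the pool. With the slide as a term the median r was 0.77. Low organic male 3 was 1.47 below its group and low organic male 6 was 1.18 above it. High organic males fell into 3 fish at -0.81 to -0.37 and 3 at -2.17 to -2.01, on the same day of scanning. The lower 3 were males 2, 4 and 7, of which males 2 and 7 shared a slide. Male 4 shared another slide with male 5, of the upper 3, and the part of the slide was not tested. These 2 sets also differed in the brightness of their arrays. The 75th percentile of signal was 123 to 258 units in the first 3 and 277 to 308 in the other 3, and its part in the split was not tested.

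The leading members of module B show this split in single probes. Ssa#GRASP209736133 had levels between -0.19 and 3.27, with low organic male 6 highest and high organic males 6 and 5 next, at 2.59 and 2.40. Ssa#S30269916 was between -3.43 and -0.74 and Ssa#S31993044 between -5.08 and -1.02, both highest in high organic female 3. High organic males 2 and 7 were low in both, at -3.37 and -3.34 for Ssa#S30269916 and at -4.59 and -4.35 for Ssa#S31993044. Both came close to background on their dimmest arrays, at 1.58 times the local background for Ssa#S30269916 and 1.44 times for Ssa#S31993044.

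Module E (11 members, median r = 0.70) had its lowest fish among the females. High inorganic female 1 was at -2.63 and low inorganic female 3 at -2.21, and the highest fish, low organic male 2, was at 0.08. High inorganic female 1 had the lowest level in the leading members Ssa#EG873728 (-1.12), Ssa#S31987536 (-3.13) and Ssa#KSS3409 (-3.36). Its array had the fewest probes well above background of the 34, at 8786, and the part of this in the result was not tested. This module had the most followers outside the members: of the 4228 other probes of the pool, 164 correlated with its mean with r of at least 0.7 and 45 with r of at most -0.7. For module A these counts were 105 and 58, and for module C 79 and 0.

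**Figure D4:**
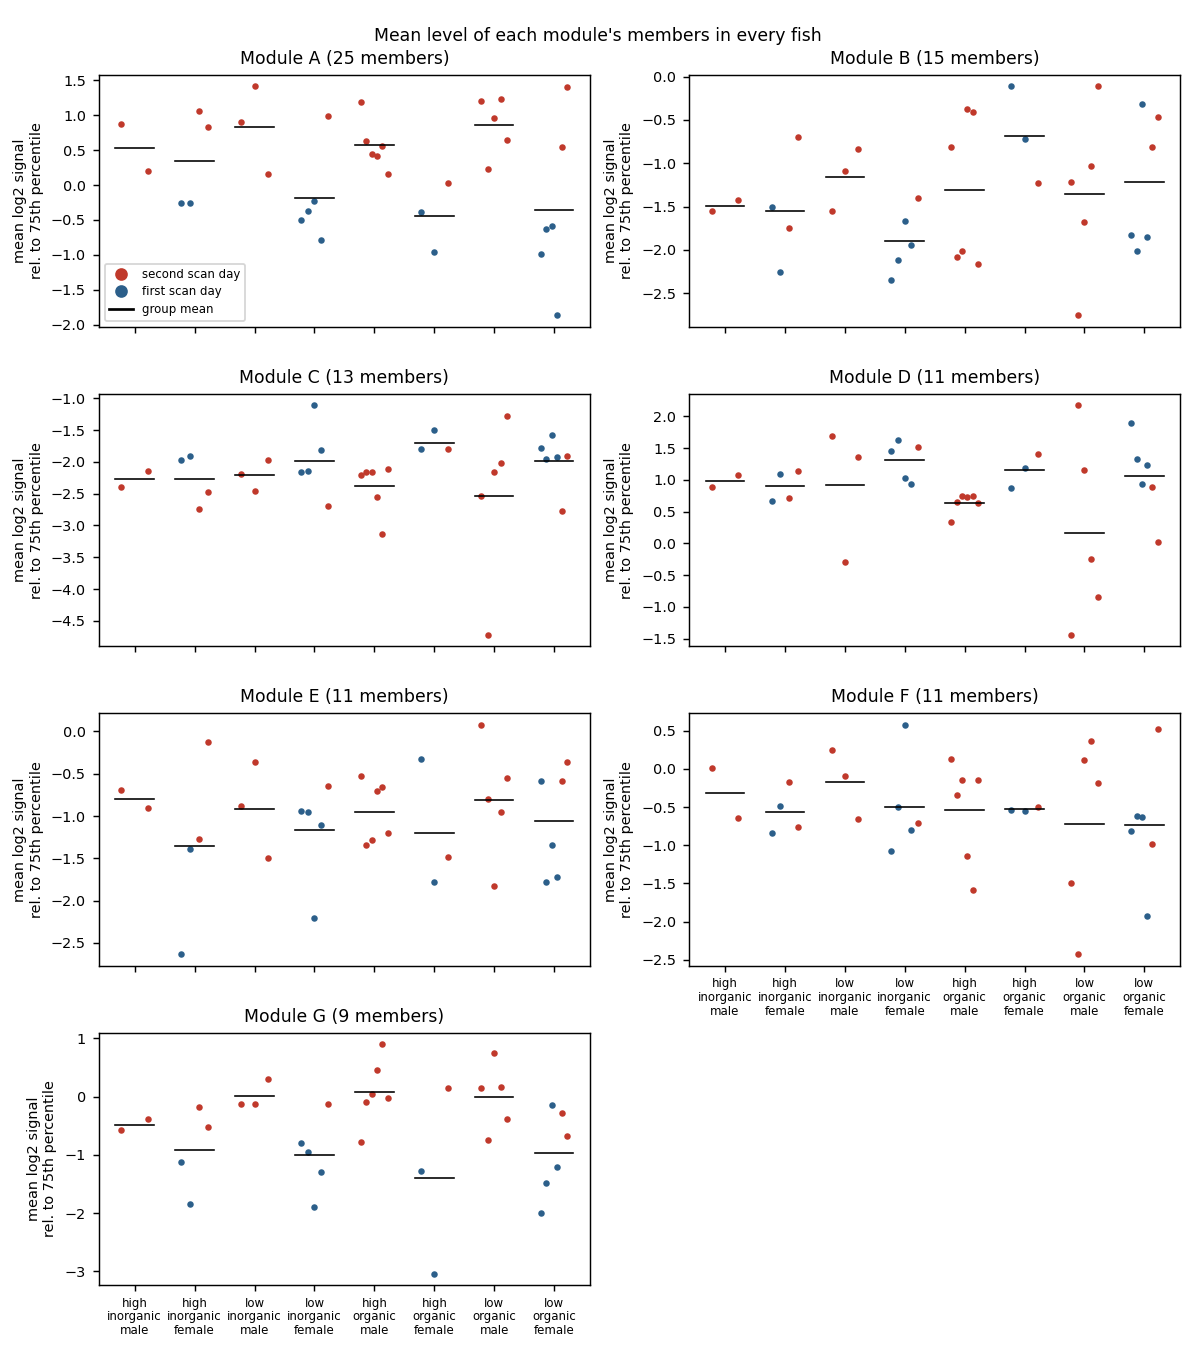
Mean level of the members of modules A to G (log2 signal relative to the 75th percentile of the array) in each of 34 fish, by diet and sex group; red points were scanned on the second day, blue points on the first, and bars are group means. In module A all red females lie above all blue females, in module C low organic male 3 lies alone at -4.72, and in module D the lowest points are low organic and low inorganic males.

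The identifiers of the members differed in make-up from those of the pool. Those starting with Ssa#GRASP made up 15.3% of the members and 39.8% of the pool, and those starting with Omy#S 9.33% and 2.86%. Identifiers starting with Ssa#S had nearly the same share in both, 36.7% and 36.4%.

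The sexes were compared in a fit of all 34 arrays. The contrast itself was not used to choose the members, but the choice was not independent of it. A split by scan day raises the SD within the female groups. With no male array from the first day, the same split also enters the difference between the sexes. Over all 12883 probes tested, 38 (0.295%) passed an adjusted p under 0.05 in limma, 32 higher and 6 lower in males. Of the members 2 of 150 did, both higher in males. Ssa#S18866662 was at 4.38 to 5.59 in males and 1.93 to 5.22 in females, with a log2 difference of 1.44 (SE 0.31, adjusted p = 0.0489). Omy#S50901702 was at 1.41 to 3.73 in males and -2.36 to 3.32 in females, with a log2 difference of 2.08 (SE 0.47, adjusted p = 0.0489). Both are among the 9 members that split the females by scan day, and the males overlapped the second-day females in both.

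Blocking on the scan day, no probe passed (218 at an unadjusted p under 0.05), and the differences were -0.0022 (SE 0.16) for Ssa#S18866662 and 0.29 (SE 0.41) for Omy#S50901702. On the arrays of the second day alone, 16 males against 6 females, they were 0.01 (SE 0.16) and 0.16 (SE 0.35). Without the 4 arrays with dim centres, all from males, the differences stayed at 1.36 (SE 0.37) for Ssa#S18866662 and 2.02 (SE 0.54) for Omy#S50901702, but 0 probes passed (adjusted p = 0.0933 for both), with 2579 at an unadjusted p under 0.05. Leaving out 1 array at a time, 0 members were called in 26 of 34 cases, with adjusted p up to 0.18, while the differences stayed at 1.31 to 1.63 and 1.77 to 2.42. These are limma fits with Benjamini-Hochberg adjustment over all probes.

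Of the members 49 (32.7%) had an unadjusted p under 0.05 against 19.6% of all probes, with a median log2 difference of 0.14 in the members and -0.01 over all probes. The choice by SD favours probes split by scan day, so the higher share in the members is a description. Among the 7595 probes tested that were well above background on all arrays, as the members are, the shares were 33.3% of the members and 24.8% of all probes. The 49 members included 21 of 25 in module A and 7 of 9 in module G, all higher in males, and 5 of 11 in module D, all lower in males. On the second day alone 1 of 149 members had an unadjusted p under 0.05, against 1.21% of 12756 probes, and the medians were -0.06 and -0.02. In the fit that blocked on the scan day, 2 of 150 did, against 1.69%, and blocking on the slide 7 of 150 (4.67%), against 1.65%. The median difference of module A was 0.83 over all arrays and -0.06 on the second day, and that of module D, which has its dim spots on male arrays of the second day, was -0.34 and -0.39. The fits share all second-day arrays.

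**Figure D5:**
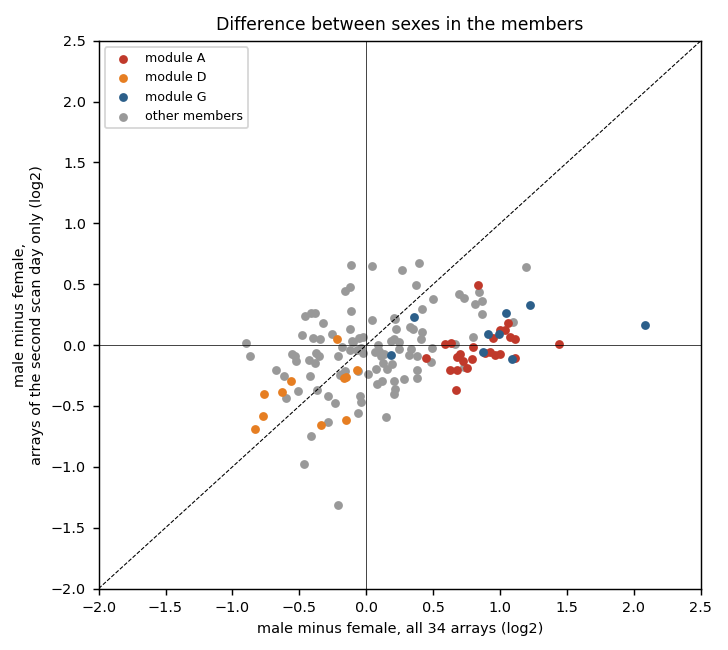
Male minus female difference (log2) of each member over all 34 arrays on the horizontal axis and over the arrays of the second scan day only on the vertical axis, with the dashed line at equal values; points are the 149 members tested in both. Modules A and G lie between 0.18 and 2.08 horizontally. Vertically module A runs between -0.37 and 0.49 with a median of -0.06, and module G between -0.11 and 0.33 with a median of 0.09.

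Inorganic and organic fish were compared in the same fit, averaged over level and sex. No probe of 12883 passed an adjusted p under 0.05 in limma (0%), though 1912 (14.8%) had an unadjusted p under 0.05. Of the members 0 passed and 10 (6.67%) had an unadjusted p under 0.05, and the lowest adjusted p among them was 0.18. Among the 7595 probes tested that were well above background on all arrays, as the members are, the shares were 8.67% of the members and 8.90% of all probes, and with normexp on the wider set of probes they were 6.00% and 3.00%. The median log2 difference was 0.08 in the members, with 90 of 150 above 0, and -0.03 over all probes. Module B leaned toward organic fish, with 14 of its 15 members lower in inorganic fish and a median difference of -0.44, and module F toward inorganic fish, with 10 of 11 members higher and a median of 0.25. None of these members passed the test over all probes, and members of a module vary together, so the counts of direction do not stand for independent probes. The difference between sexes was also compared between inorganic and organic fish, a comparison added after the data were seen. It passed in limma for 0 probes and 0 members, with 1358 probes at an unadjusted p under 0.05. That count changed with the arrays in the fit. Without the 4 arrays with dim centres 1025 of 12880 probes passed, 997 with a higher male minus female difference in inorganic fish. The only low-level males left in that fit were low organic males 3 and 4 and low inorganic males 1 and 5. Low organic male 3 had the highest root mean square deviation over the members, 1.34. What these smaller groups contributed to the count was not tested. Without low organic male 6 alone 716 probes passed, 699 of them with a higher difference. Of the members 1 of 150 passed without the 4 arrays, against 7.96% of all probes. At an unadjusted p under 0.05 the shares in that fit were 11.3% of the members and 20.4% of all probes. Without low organic male 6 alone 0 members passed, against 5.56% of all probes. The member that passed was Ssa#KSS535 of module B. Its log2 difference was 1.59 (SE 0.50, adjusted p = 0.0487) without the 4 arrays and 0.92 (SE 0.55, adjusted p = 0.54) over all arrays. Low organic male 6 had the highest level of this probe, at 0.05, and the other low organic males were at -3.25 to -1.55.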

How the data were processed

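Midgut RNA of 34 Atlantic salmon was measured on one-colour arrays, 1 fish per array, grouped by level, mineral source and sex from the sample labels. The authors deposited scanner files from Agilent Feature Extraction 12.0.1.1 with the intensity of each of 14841 probes, background-subtracted by that software and not scaled between arrays, and a table of processed intensity values, of which 99.3% equalled the median brightness minus local background times 1 factor per array, within 1 unit or 1%. The log2 processed signal minus the array's 75th percentile was used here. Spots marked as outliers (2160, of which 20 in members) were left out and 0 spots were saturated. No 2 arrays held the same values.

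The members and lists were chosen with earlier results of these data known. Modules came from average linkage on 1 minus Pearson r of residuals from the 8 group means, with the tree at a height of 0.5 and at least 8 members. Named probes were the 3 members with the highest mean r in each of the 6 largest modules (3 modules shared the fifth place), the 5 most variable, 2 on each side of the threshold and those that passed in a comparison. Contrasts were fitted with limma 3.58.1 in R 4.3.3 on probes well above background on at least 6 arrays, as means over the 4 pairs of groups, with Benjamini-Hochberg adjustment; the scripts were tested on simulated data. Functional and cell type lists could not be applied without gene names. The smallest groups held 2 and 3 fish, which limits precision as signal does. The labels and the study's methods name different RNA extraction kits.

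Alternatives were normexp (offset 50, on the median brightness), quantile normalization, the authors' processed values, outlier spots kept, Spearman correlation, other filters on dim probes, slide, scan day or fish number as a block, and each array left out in turn. Added after the data were seen were the sex by mineral source comparison itself and its alternatives. So were the second scan day alone, spots at least 2 mm from the centre, and the 30 arrays without a dim centre.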

Additional observations from a re-analysis of the deposited data

Results flagged for a closer look

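A fish lay far from the rest of its group in 2 of 40 screened sets of module means and overall deviations (Dixon's ratio, groups of 4 to 6 fish); chance flags about 1 in 20. In module C, low organic female 5 had a mean level of -2.78, and the next of the 6 low organic females was at -1.96. Low organic female 5 was scanned on the second day, as was low organic female 6, at -1.91. Over all females the median of module C was -2.58 on the second day and -1.87 on the first, with overlap. In module D, high organic male 1 had a mean level of 0.34, and the next of the 6 high organic males was at 0.63. Low organic male 3, at -4.72 in module C, lies in a group of 5 where the other males were spread too, and was not flagged in this way.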

How the results depend on the processing

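The number of the 150 members chosen again was 54 with normexp, 55 with the authors' processed values and 76 without the arrays with a dim centre, and 99 to 140 when each array was left out (99 without low organic male 3). It was 108 with quantile normalization, 116 with a block for the slide, 122 with one for the scan day, and 118 with spots at least 2 mm from the centre, which are the 118 members located there. Pairs were counted over the members of the main choice in every alternative, not over members chosen again. The number of these pairs with r past 0.5 in size stayed within 1.5 times of 1565 under every alternative run. It was 1406 to 1667 when each array was left out, the lowest without low organic female 6. The count does not show how members chosen under another setting would vary together.

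The count of probes called between males and females depended on most settings. It was 38 in the fit reported, 11 without a filter on dim probes, 296 with probes above background on all arrays, 231 with normexp, 1047 with the authors' values (1022 of them higher in males, against 32 of 38), 79 with spots at least 2 mm from the centre, and 0 with a block for slide or scan day, on the second day alone or without the dim arrays. Members called, 2 in the fit reported, numbered 0, 13, 8, 31, 4 and 0 in the same order, and 0 with the replicate block. When each array was left out, 0 to 746 probes and 0 to 20 members were called, with 0 probes in 24 of 34 cases. The differences turned to -0.44 for Omy#S50901702 when blocked on the slide and to -0.0022 for Ssa#S18866662 when blocked on the scan day. Of the 7 slides 5 carried a single sex, so the slide block leaves little to compare the sexes on. With it the members' median SE was 0.70, against 0.28 in the fit reported. For inorganic minus organic, 0 probes became 2 with spots at least 2 mm from the centre and 0 to 9 when each array was left out, with 0 members throughout. For the sex difference compared between mineral sources, 0 probes became 1025 without the dim arrays (1 member), 1 with the replicate block and 0 to 716 when each array was left out (716 without low organic male 6, 1 without low inorganic male 2), with 0 members in the fits with 1 array left out. Apart from the blocks, the cause of these shifts was not tested.

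Fish numbers recur between groups and are not said to pair fish. With the fish number as a replicate block 31 probes and 0 members were called between the sexes. Of 11 male and female pairs of 1 number and diet, 1 had deviations that correlated above 0.1 (r from -0.24 to 0.29). Of 22 arrays, 2 were closest to their own number. Whether fish of 1 number shared a tank or a sampling was not tested. No male was scanned on the first day, so sex and scan day overlap, and groups of 2 to 6 fish and dim probes limit precision.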
